A study of Homo sapiens with 16 samples.

Results

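SIRT1 was followed through the enriched biological process terms of the MDA231 brain metastases, where it was named in 23 of 314 terms (7.32%), the highest number for any of the 2646 genes named. The gene was chosen by that number, which comes from the table itself, so its count is a description and carries no test. Its terms are described here with their other listed genes, called partners. SIRT1 (ENSG00000096717) lies on chromosome 10 of GRCh38, from 67884669 to 67918390 on the plus strand, and overlaps 0 other genes of the GENCODE annotation.

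The series used Flura-seq, in which cells able to convert 5-fluorocytosine label their new RNA and the labelled RNA is recovered with an antibody. Brain-metastatic derivatives of 2 human breast cancer lines, HCC1954 (ERBB2-positive) and MDA231 (triple-negative), grew in the brains of xenografted mice for 30 days, and all mice received 250 mg/kg 5-fluorocytosine 12 hours before harvest. The 4 groups were HCC1954 input, HCC1954 IP (labelled RNA pulled down with anti-BrdU antibody, 2.5 µg a brain), MDA231 input and MDA231 IP, with 4 libraries each. Each line is a single derivative in a host brain; what strain, sex and age the mice had, and which construct made the cells label, is not given in the sources used.

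The values are 1 authors' table of enriched terms per line, with no value per library. No statement below has a replicate error, and neither a level nor a direction of SIRT1 in IP against input RNA can be read from them. The MDA231 list held 3626 genes with a biological process among 16792 background genes, or 21.6%. How the authors picked those genes, and in which direction they differed between IP and input RNA, is not given in the sources used. Of 12 markers of astrocytes, microglia, neurons and oligodendrocytes, 1 was named in a MDA231 term (MAP2, a neuronal microtubule protein), and it shared no term with SIRT1. Of all background genes, 15.8% were named in a MDA231 term. Only membership of terms was looked up, so this count says nothing about other brain cells in the samples.

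SIRT1 is a protein deacetylase that consumes NAD, the redox cofactor, each time it removes an acetyl group, which ties its activity to the metabolic state of the cell. It acts on histones and on many other proteins, among them transcription factors, DNA repair proteins and parts of the autophagy machinery, and is best known as a repressor of transcription and a modulator of stress responses, cell survival and ageing. Gene Ontology, the catalogue behind the terms, records these roles one by one, so a widely studied enzyme can stand in many terms.

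The terms of SIRT1 lay mainly in genome maintenance and in transcription. Of 23 terms, 7 concerned DNA damage, repair and replication and 6 chromatin, acetylation and transcription. Stress and nutrient response, kinase signalling and immune or viral processes had 2 each, and caspase activation, senescence, ubiquitination and neuron death 1 each. SIRT1 was in 7 of all 21 MDA231 terms of the DNA group (33.3%) and 6 of 23 of the chromatin group (26.1%), against 7.32% of terms overall. The overall share takes in 127 terms that fell in no group, of which 1 named SIRT1 (0.787%, neuron death). Over grouped terms alone its share is therefore higher than 7.32%. The groups were chosen with earlier results known, so nothing is read from the gap. SIRT1 was also in 2 of 6 terms of stress and nutrient response (33.3%), the 1 senescence term, 12.5% of immune and 8.7% of signalling terms. Its share was 7.14% of cell death terms (1 of 14) and 3.23% of autophagy and protein turnover terms (1 of 31). Groups were set by wording, so interstrand cross-link repair, DNA duplex unwinding and strand displacement, all without SIRT1, fell outside the DNA group. With them its share there would be lower. It was in 0 of 26 terms of lipid, sugar and energy metabolism, 0 of 15 of cell cycle and growth and 0 of 11 of development.

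The authors' deposited table gives an unadjusted p and a Benjamini-adjusted p per term. The Benjamini p was under 0.05 for 3 of the 23 terms in the authors' deposited table, beside 15 of all 314 (4.78%). An unadjusted p under 0.05 was given for 15 of the 23 in the authors' deposited table, beside 68.2% of all 314. Both shares come from the table that chose the gene, so nothing is read from them. The table lists only terms whose unadjusted p was at most 0.0973 in the authors' deposited table, all with a fold of at least 1.06, so a listed share above the background comes with being in it. The listed share of a term, the percentage of its background genes that were in the MDA231 list, ran from 22.9% to 100% over the 23 terms with a median of 38.1%. Its exact (Clopper-Pearson) 95% interval lay above the 21.6% of the whole background in 17 terms (73.9%) and reached it in 6, where 247 of all 314 terms (78.7%) had an interval above it. The median listed share of all 314 was 41.7%. These intervals cover the draw of genes and nothing else, and the terms share genes.

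**Figure D1:**
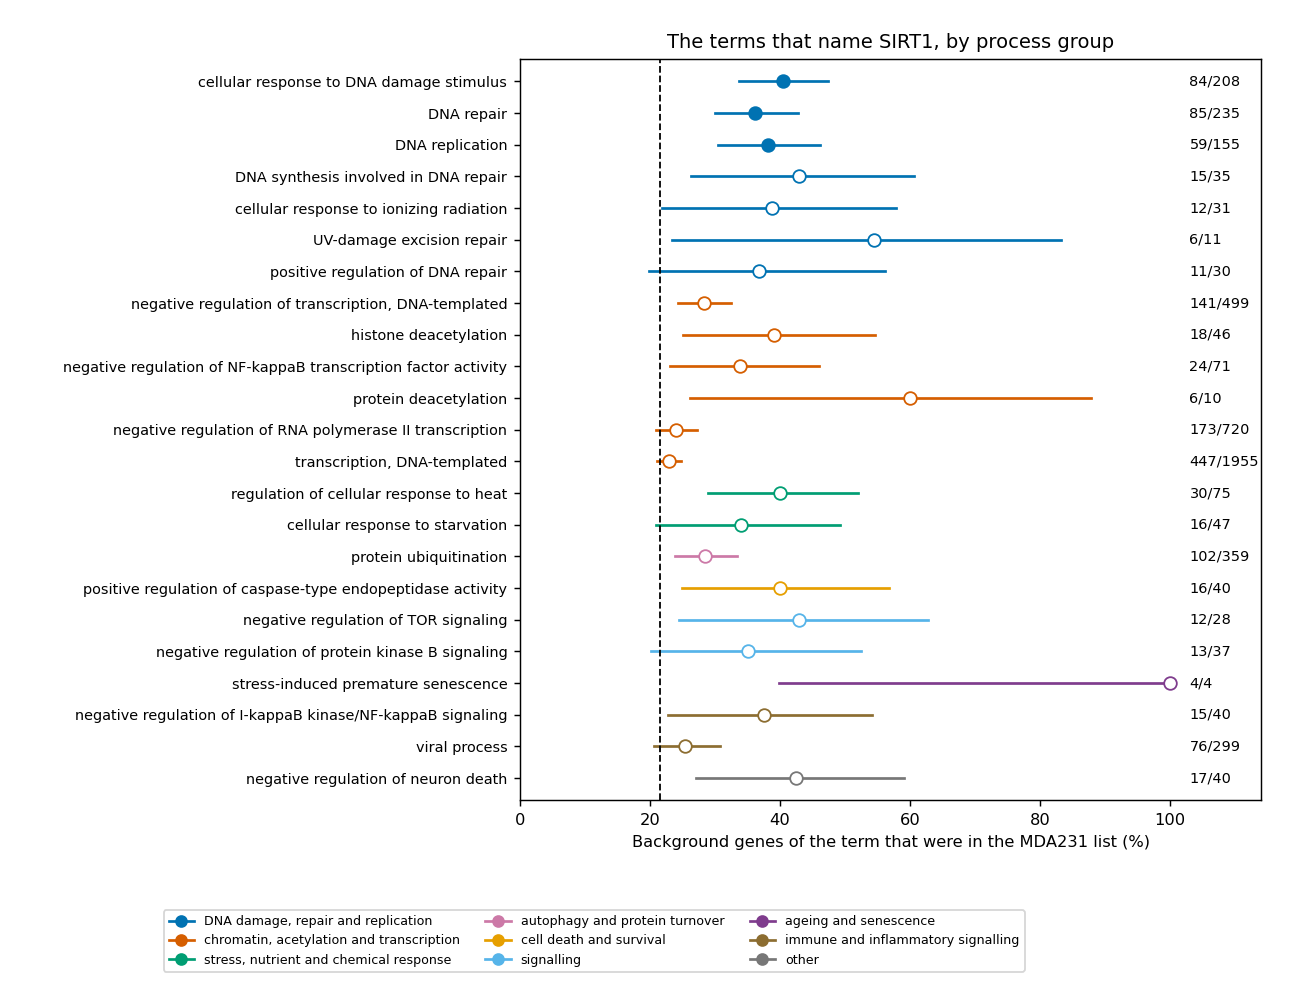
Each of the 23 terms naming SIRT1 is plotted by the percentage of its background genes in the MDA231 list (x axis), with exact 95% intervals as lines, the process group as colour, filled points for a Benjamini p under 0.05, and listed over background genes at the right; the dashed line is the 21.6% of the whole background. The 3 filled points are all DNA terms, and "caspase-type endopeptidase activity" shortens the longer term name given in the text.

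Among the DNA terms, cellular response to DNA damage stimulus came 1st of all 314 MDA231 terms by p in the authors' deposited table, DNA repair 5th and DNA replication 9th. Their listed shares were 40.4% (84 of 208 genes, interval 33.7 to 47.4), 36.2% (85 of 235, interval 30.0 to 42.7) and 38.1% (59 of 155, interval 30.4 to 46.2). These are the terms of SIRT1 whose Benjamini p was under 0.05 by the authors' deposited table, at 9.41e-06, 0.00051 and 0.00339. The other DNA terms were smaller, and none passed that threshold.

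DNA synthesis involved in DNA repair held 15 of 35 genes (42.9%, interval 26.3 to 60.6; Benjamini p = 0.593 by the authors' deposited table). Its partners of SIRT1 are the enzymes of homologous recombination and repair synthesis. They include the recombination proteins RAD51C, RAD51D, XRCC2 and RAD51AP1, the helicases BLM and BRIP1, and the nucleases MRE11 and EXO1. Also among them are the polymerase subunits POLA1 and POLE, the polymerase POLH, the clamp loader subunit RFC3 and the acetyltransferase KAT5. Of these 14, 0 were limited to this term, and each stood in a further term with SIRT1. Of the 15 genes, 10 also formed strand displacement (10 of 26 genes; Benjamini p = 0.960 by the authors' deposited table), which does not name SIRT1.

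Cellular response to ionizing radiation held 12 of 31 genes (38.7%, interval 21.8 to 57.8; Benjamini p = 0.899 by the authors' deposited table). BLM and RAD51AP1 recurred there, with the cell cycle inhibitor CDKN1A, the stress kinase MAPK14, the chromatin remodeller INO80 and the small GTPase RHOB. UV-damage excision repair held 6 of 11 genes (54.5%, interval 23.4 to 83.3; Benjamini p = 0.933 by the authors' deposited table). Beside SIRT1 they were the damage sensor XPC, the nuclease subunit ERCC1, the ubiquitin ligase scaffold CUL4B, INO80 and the histone gene H2AC25. Positive regulation of DNA repair held 11 of 30 genes (36.7%, interval 19.9 to 56.1; Benjamini p = 0.964 by the authors' deposited table), with the abasic site nuclease APEX1, the ubiquitin ligase RNF168 and the BRCA1 complex members UIMC1, BABAM1 and BABAM2.

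SIRT1 was not named in the remaining 14 terms of the DNA group. They cover double-strand break repair by homologous recombination (24 of 74 genes) and by end joining (20 of 63), transcription-coupled excision repair (24 of 74), the initiation of replication (14 of 32) and telomere upkeep. Their folds ran from 1.47 to 4.63 in the authors' deposited table and their Benjamini p from 0.148 to 0.939, so none passed the threshold.

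The terms for the enzyme's own reaction were small. Protein deacetylation held 6 of 10 genes (60%, interval 26.2 to 87.8), at 2.78-fold and a Benjamini p of 0.862 by the authors' deposited table. Its members were 3 sirtuins, SIRT1, SIRT2 and SIRT5, the zinc-dependent deacetylases HDAC1 and HDAC3, and SIN3A, the scaffold of a deacetylase complex. SIRT2 is a mainly cytoplasmic deacetylase and SIRT5 a mitochondrial sirtuin. Histone deacetylation held 18 of 46 genes (39.1%, interval 25.1 to 54.6), at 1.81-fold and a Benjamini p of 0.615 by the authors' deposited table. It again named SIRT1, SIRT2, HDAC1 and SIN3A. Most of its other members are parts of corepressor complexes, with BRMS1, BRMS1L and RBBP7 of the SIN3 complex, MTA1, MTA3 and MBD3 of the NuRD complex, PHF21A and HMG20B of the CoREST complex, TBL1X of the NCoR complex and the deacetylase HDAC9.

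Of the broad transcription terms, the first stood above the 21.6% of the background and the intervals of the other two reached it. Negative regulation of transcription, DNA-templated stood at 28.3% (141 of 499 genes, interval 24.3 to 32.4; Benjamini p = 0.0909 by the authors' deposited table). Negative regulation of transcription from RNA polymerase II promoter stood at 24% (173 of 720, interval 20.9 to 27.3; Benjamini p = 0.939 by the authors' deposited table). Transcription, DNA-templated, the largest MDA231 term, stood at 22.9% (447 of 1955, interval 21 to 24.8; Benjamini p = 0.955 by the authors' deposited table). These 3 terms supplied 547 of the partners of SIRT1, and 51 genes besides SIRT1 were in all of them.

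SIRT1 also stood in terms for heat, starvation and growth signalling. Regulation of cellular response to heat held 30 of 75 genes (40%, interval 28.9 to 52.0; Benjamini p = 0.133 by the authors' deposited table). It named HSF1, the main heat shock transcription factor, the co-chaperones BAG1, BAG4, DNAJC2 and DNAJC7, the growth kinase MTOR with its partner MLST8, and CCAR2, an inhibitor that binds SIRT1. Cellular response to starvation held 16 of 47 genes (34%, interval 20.9 to 49.3; Benjamini p = 0.933 by the authors' deposited table), with the autophagy enzyme ATG7, the sterol regulator SREBF2 and FNIP1, which binds the energy sensor AMPK. Of its 15 partners, 11 were in no other term with SIRT1.

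Negative regulation of TOR signaling held 12 of 28 genes (42.9%, interval 24.5 to 62.8; Benjamini p = 0.774 by the authors' deposited table). All 3 subunits of the TSC complex, which restrains MTOR, were named there (TSC1, TSC2 and TBC1D7). Further members were DEPDC5 of the amino acid sensing GATOR complex, the stress-induced inhibitor DDIT4 and the clock transcription factor BMAL1. Negative regulation of protein kinase B signaling held 13 of 37 genes (35.1%, interval 20.2 to 52.5; Benjamini p = 0.956 by the authors' deposited table). It shared TSC2 and the calcium-binding protein PDCD6 with the TOR term, and it added INPP5K, a phosphoinositide phosphatase, PHLDA3, a competitor for membrane phosphoinositides, and DDIT3, a transcription factor of endoplasmic reticulum stress.

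Stress-induced premature senescence was the smallest term of SIRT1. All 4 of its background genes were listed: SIRT1, CDKN1A and the kinases MAPK14 (p38 alpha) and MAPKAPK5 (100%, interval 39.8 to 100). Its fold of 4.63 is the largest this list allows, and the authors' deposited table gives it an unadjusted p of 0.0337 and a Benjamini p of 0.815. The term would not be in the set if at least 10 background genes were asked for. CDKN1A, MAPK14 and MAPKAPK5 were all in Ras protein signal transduction too (25 of 70 genes; Benjamini p = 0.575 by the authors' deposited table), which lacks SIRT1. MAPK14 and MAPKAPK5 were also in peptidyl-serine phosphorylation (45 of 125 genes), which lacks it too.

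A further pair of terms concerned cell death, one its promotion and one its restraint. Positive regulation of cysteine-type endopeptidase activity involved in apoptotic process held 16 of 40 genes (40%, interval 24.9 to 56.7; Benjamini p = 0.668 by the authors' deposited table). Beside SIRT1 it named, among others, the pro-death BCL2 family members BAD and BCL2L11, the death ligand TNFSF10, the kinases DAPK1 and MAP3K5, and MYC. Negative regulation of neuron death held 17 of 40 genes (42.5%, interval 27.0 to 59.1; Benjamini p = 0.519 by the authors' deposited table), with the transcription factor CREB1, beta-catenin (CTNNB1), the sorting receptor SORL1, the nuclear receptor PPARA and TIGAR, a regulator of sugar metabolism. The 2 terms shared HSF1 and the mitochondrial protease HTRA2. A term name is a label from the catalogue and shows nothing about neurons in these samples.

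A pair of terms concerned the inhibition of NF-kappaB, a transcription factor family of inflammation whose subunit RELA is a known SIRT1 substrate. Negative regulation of NF-kappaB transcription factor activity held 24 of 71 genes (33.8%, interval 23.0 to 46.0; Benjamini p = 0.750 by the authors' deposited table). Negative regulation of I-kappaB kinase/NF-kappaB signaling held 15 of 40 (37.5%, interval 22.7 to 54.2; Benjamini p = 0.828 by the authors' deposited table). They had only 2 genes besides SIRT1 in common, TNFAIP3, a ubiquitin-editing brake on the pathway, and the co-chaperone DNAJA3. CYLD, ITCH, USP7 and BRMS1 were in the former alone, and OPTN, OTUD7B, TANK, CASP8 and TLE1 in the latter alone. RELA itself was named in no MDA231 term.

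The last terms of SIRT1 were broad. Protein ubiquitination held 102 of 359 genes (28.4%, interval 23.8 to 33.4; Benjamini p = 0.306 by the authors' deposited table). The term is for the tagging of proteins with ubiquitin, and 78 of its 101 partners were in no other term with SIRT1. Viral process, a term for host genes that viruses use, held 76 of 299 (25.4%, interval 20.6 to 30.7; Benjamini p = 0.953 by the authors' deposited table). It shared 13 genes besides SIRT1 with the heat term, all of them components of the nuclear pore, such as NUP62, NUP98 and RANBP2.

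Over the 23 terms SIRT1 had 891 partners, or 33.7% of the other genes named for MDA231. Most were met in a single term: 578 of 891 (64.9%) shared 1 term with SIRT1, 202 shared 2, 81 shared 3, 18 shared 4, 9 shared 5 and 3 shared 6. The 30 that shared at least 4 are the named partners, and the 81 genes just below them shared 3.

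The leading partners were SIN3A and HDAC1, a corepressor scaffold and its deacetylase, and KAT5, an acetyltransferase with the opposite reaction, each in 6 terms with SIRT1. SIN3A shared 6 of its 8 MDA231 terms, HDAC1 6 of 10 and KAT5 6 of 13. In all 3 cases the shared terms included every broad transcription term. SIN3A and HDAC1 added both deacetylation terms, SIN3A and KAT5 DNA replication, HDAC1 and KAT5 viral process, and KAT5 alone the repair synthesis term.

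Another 9 partners shared 5 terms with SIRT1. BRMS1, a breast cancer metastasis suppressor of the SIN3 complex, and SUV39H1, a heterochromatin methyltransferase, shared 5 of 6 terms each. HSF1 shared 5 of 7, spread over heat, caspase, neuron death and transcription terms. DDIT3 shared 5 of 8, TIMELESS, a protector of replication forks, 5 of 9, SIRT2 5 of 10, and MEN1, the scaffold protein menin, 5 of 11. MRE11 (5 of 13) and BLM (5 of 15) were the DNA enzymes of this tier and were in 0 of the 3 broad transcription terms.

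HDAC3, the arginine methyltransferase PRMT6 and the corepressor TLE1 shared 4 terms with SIRT1 and were in no MDA231 term without it. For each of these genes, 3 of the 4 were the broad transcription terms. Another 20 genes stood only with SIRT1 in 3 terms, among them ATF7, BHLHE40, COMMD7, DNAJC2, EID2, GATAD2A and GCFC2. In all, 340 of the 891 partners were in no term without SIRT1, and 72 of these were in at least 2 terms. Of the 340, 167 were named in transcription, DNA-templated and in no other MDA231 term. Of the partners with 4 shared terms, BCL6, HDAC9, SP100 and CTNNB1 were in all 3 broad transcription terms, and KIN, POLA1 and ATR in none of those. KIN and POLA1 shared DNA terms and viral process with SIRT1, and ATR shared DNA terms and the heat term.

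**Figure D2:**
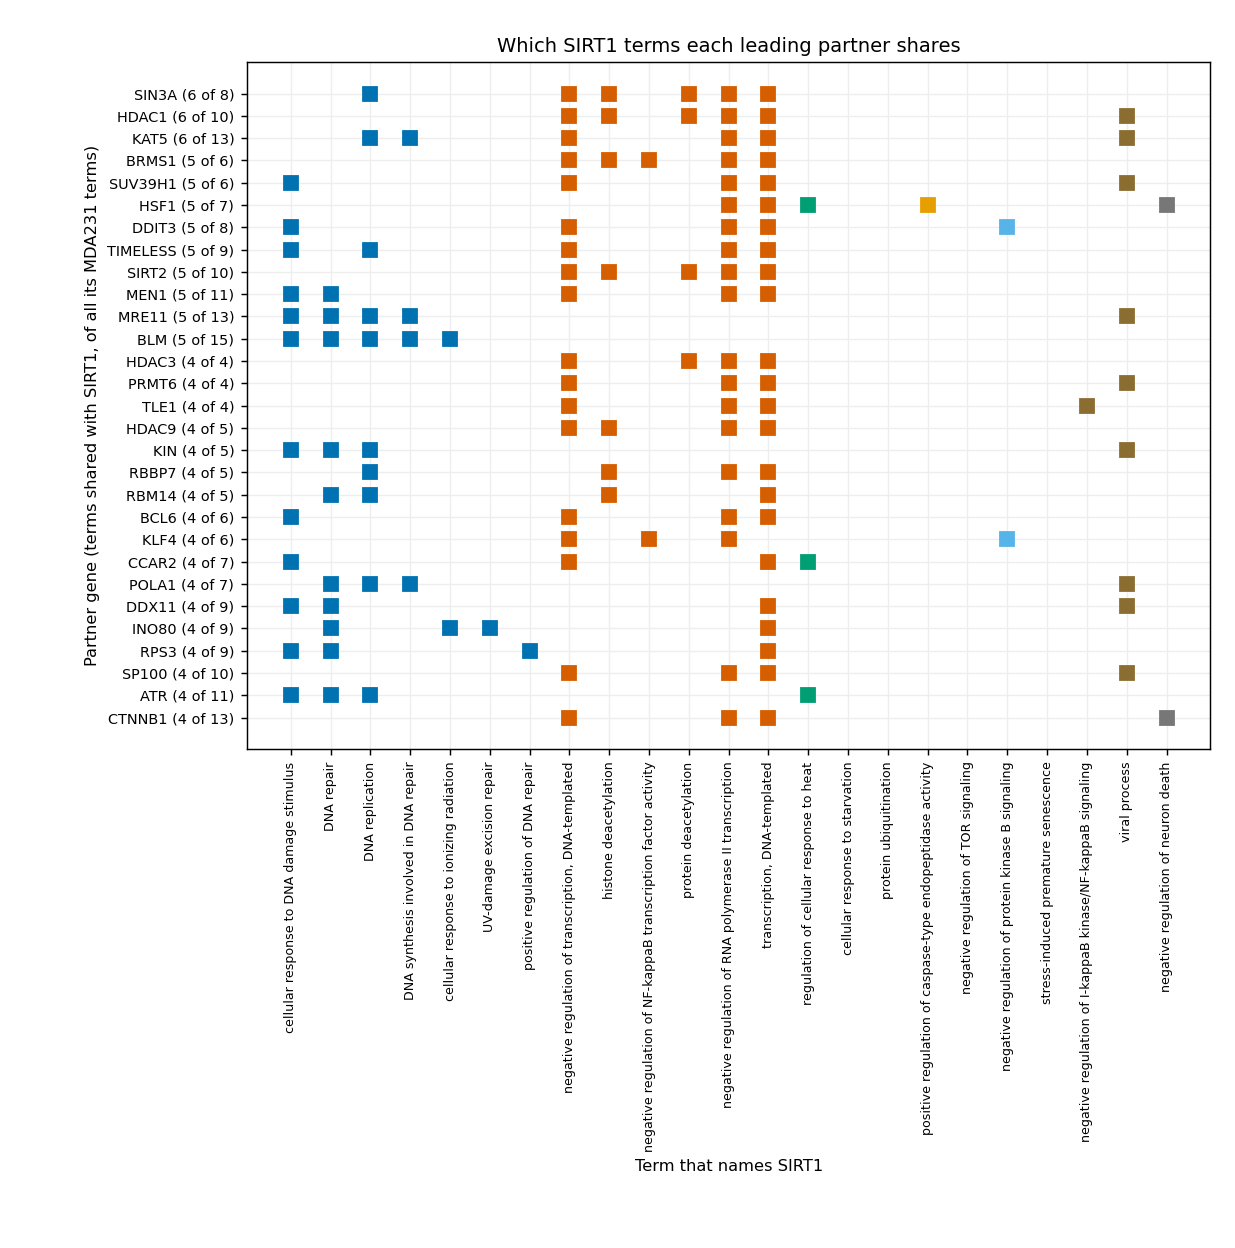
Rows are 29 of the 30 genes sharing at least 4 terms with SIRT1 (terms shared, of all the gene's MDA231 terms, in parentheses), columns are the 23 terms naming SIRT1, and a square marks that the term names the gene, coloured by process group. The squares form a DNA block at the left (BLM, MRE11, ATR) and a transcription block in the middle (16 of 30 genes in all 3 broad transcription terms), and the starvation, ubiquitination, TOR and senescence columns are empty.

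The order of partners rested on the broad terms. Of the 30 named partners, 16 were in all 3 broad transcription terms and 6 in none of them (among them MRE11, BLM, KIN, POLA1 and ATR). Without those 3 terms the count of partners was 447, MRE11 and BLM led with 5 terms each, and 15 of the 30 stayed among the leading 30 (23 among 119 genes with ties at the last place taken). SIN3A, HDAC1 and KAT5 then had 3 each. With each term weighted by the inverse of its number of genes, CDKN1A, MAPK14 and MAPKAPK5 led through the senescence term.

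**Figure D3:**
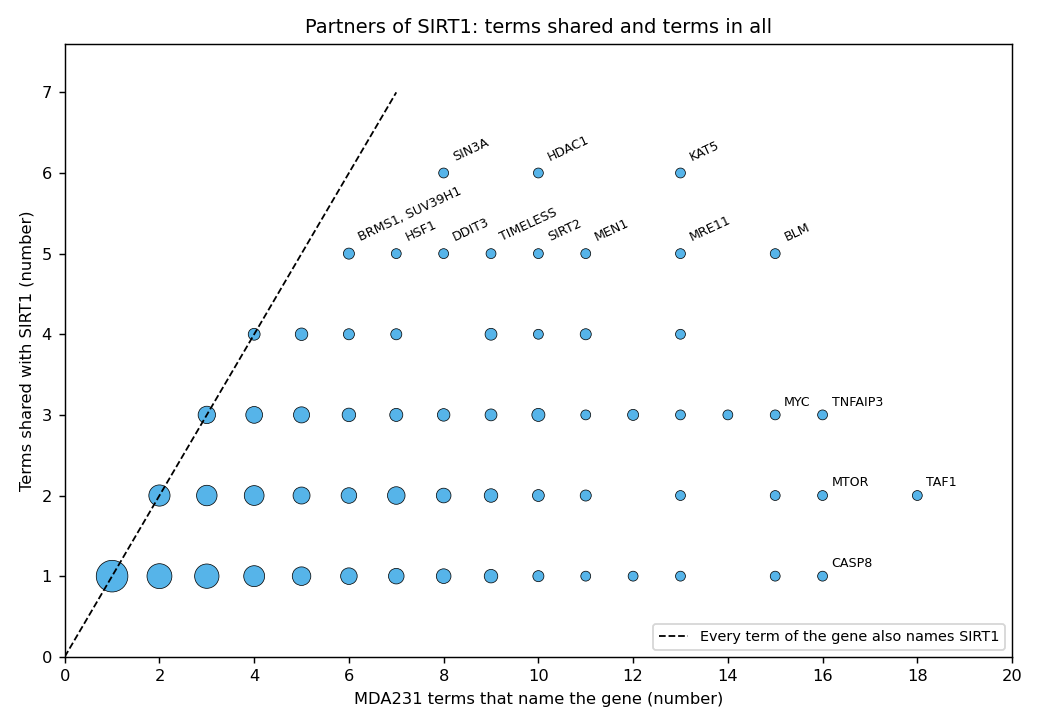
Each circle stands for the partners with a given number of MDA231 terms (x axis) and of terms shared with SIRT1 (y axis), its area growing with the number of genes; genes sharing at least 5 terms and 5 frequently named genes are labelled. Genes on the dashed line, such as HDAC3, PRMT6 and TLE1 at 4 terms, were named only beside SIRT1, while TAF1 shared 2 of its 18 terms and CASP8 1 of 16.

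Large terms of SIRT1 held much of some small ones, while many pairs met only in SIRT1. Of the 253 pairs of terms, 131 (51.8%) had no gene in common but SIRT1. The highest Jaccard index, the shared genes over all genes of a pair, was 0.276, for the 2 terms of repressed transcription, which had 67 genes in common besides SIRT1. The next pairs were senescence with ionizing radiation (0.231, through CDKN1A and MAPK14) and the 2 deacetylation terms (0.200, through HDAC1, SIN3A and SIRT2). DNA repair and cellular response to DNA damage stimulus shared 22 genes besides SIRT1 and had an index of 0.158. Term sizes differ widely, which holds this index low. Counted as a share of the smaller term, SIRT1 included, the overlap was at least 50% in 17 of the 253 pairs (6.72%), with a median of 15.4%. Histone deacetylation had 94.4% of its genes in transcription, DNA-templated, and protein deacetylation had 83.3% in each broad transcription term. DNA synthesis involved in DNA repair had 80% of its genes in DNA repair, and senescence 75% in the ionizing radiation term.

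SIRT1 was set beside the other 16 genes in at least 13 MDA231 terms. Its most frequent partners were in 26.1% of its terms, below the 26.7% to 75% of the other 16 (median 39.25%). The share is taken over the number of terms by which SIRT1 was chosen, and its 23 is the largest. By the plain count, the 6 terms of its leading partners equalled those of TAF1, MTOR, TNFAIP3, CDK5, GSK3B and KAT5 and were above the 5 of CTNNB1 and the 4 of MYC, TRAF6, CDKN2A and PLK1. At the other end, the death receptor adaptor FADD and its protease CASP8 shared 12 of 16 terms, and BLM shared 9 of its 15 with MRE11. MYC was nearest to SIRT1, with 4 of 15 terms beside its leading partners. The difference from MYC is less than 1 term, and no test was made, since these genes were all picked by their number of terms. By the share of term pairs that had only the gene itself in common, SIRT1 (51.8%) lay within the range of the others (15.4% to 63.8%), below MYC (63.8%), MTOR (60.8%), TRAF2 (58.1%) and CDK5 (53.3%).

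**Figure D4:**
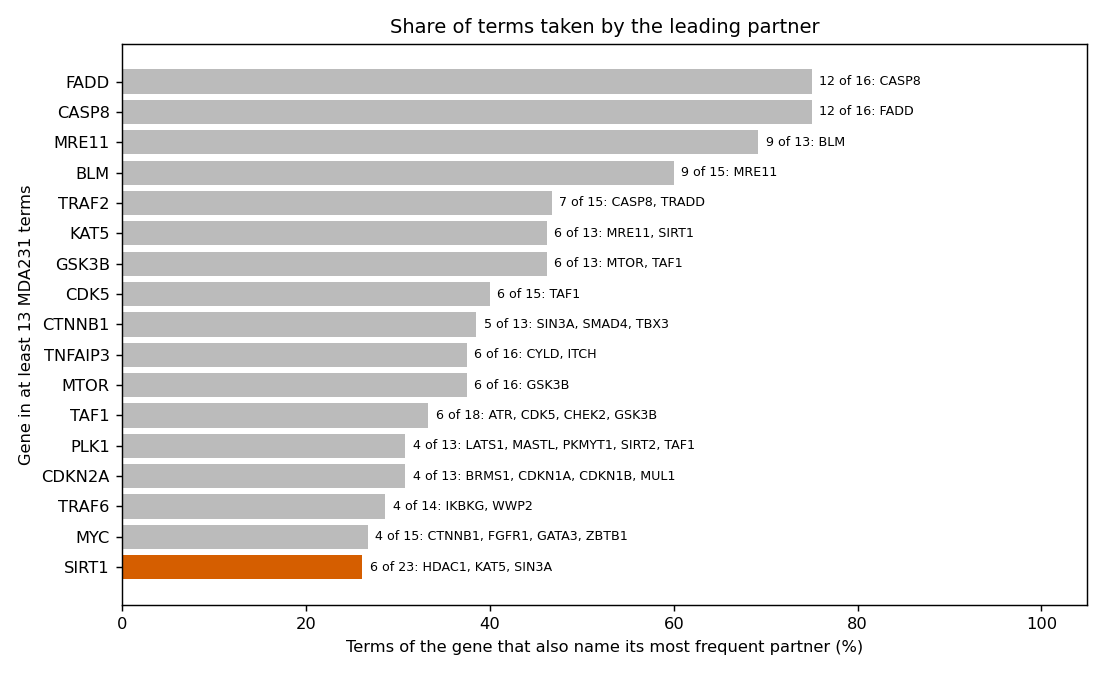
Bars give, for each of the 17 genes in at least 13 MDA231 terms, the percentage of its terms that also name its most frequent partner, with the numbers and names of leading partners beside the bar. SIRT1 (26.1%) has the lowest bar and the largest number of terms, next to MYC (26.7%), and FADD and CASP8 the highest (75%).

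Large terms named SIRT1 more often than small ones. A term with more genes is more likely to name any given gene. No other gene was counted by size, so whether the trend is particular to SIRT1 was not tested. It was in 4 of the 9 MDA231 terms with over 100 listed genes (44.4%), 4 of 18 with 50 to 100 (22.2%) and 15 of 287 with under 50 (5.23%). The median background size was 46 genes for terms naming it and 29 for the 291 that did not. The median fold was 1.76 with SIRT1 and 1.95 without in the authors' deposited table, and by size class the median for terms without SIRT1 was 1.36 over 100 listed genes, 1.48 at 50 to 100 and 2.02 under 50. For terms with SIRT1 these medians were 1.21, 1.72 and 1.85, so they were lower in the largest and smallest class and higher in the middle one. Only terms up to a limit of unadjusted p are listed, so a small term needs a larger fold than a large one to be there. With SIRT1 itself taken out of each term, the list and the background, the folds ran from 1.06 to 4.63 and the median was 1.70, so no fold moved by more than 1.09 times.

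**Figure D5:**
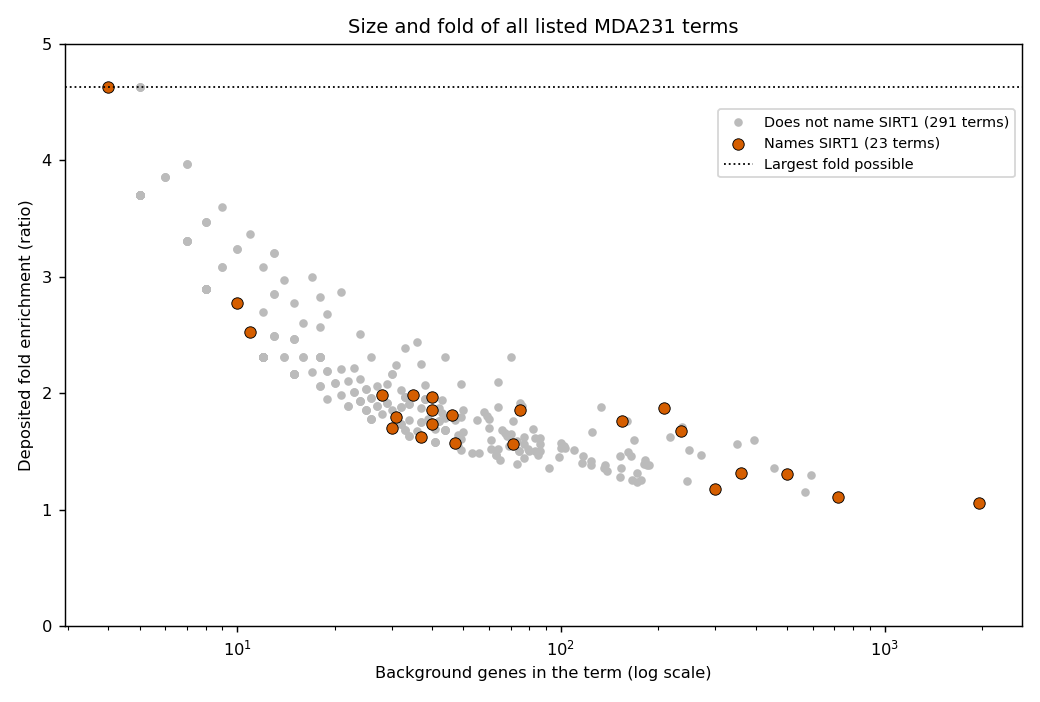
All 314 MDA231 terms are plotted by their number of background genes (x axis, log scale) and the deposited fold enrichment (y axis), with the 23 terms naming SIRT1 in orange and the largest possible fold, 4.63, dotted. SIRT1 terms span the full range of sizes, from 4 to 1955 background genes, and the fold falls with size in both sets. A small term needs a larger fold than a large one to be listed at all.

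Genes that work with SIRT1 were then looked up from 11 lists. Of 157 distinct genes on them, 51 were named in a MDA231 term (32.5%, SIRT1 among them), where 15.8% of all background genes were named. A term with SIRT1 was shared by 39. Partners of SIRT1 made up 5.31% of the background and 33.7% of the other named genes. Well-annotated genes are in more terms, and the lists were chosen with earlier results known, so these counts are a description. Of the 7 sirtuins, SIRT1, SIRT2, SIRT5 and SIRT7 were named, each in a term with SIRT1, and SIRT3, SIRT4 and SIRT6 were not. SIRT7, a nucleolar deacetylase, was in 1 term, and SIRT2 in 5 terms without SIRT1: cell division, autophagy, mitotic nuclear division, regulation of cell cycle and positive regulation of proteasomal ubiquitin-dependent protein catabolic process.

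Of other enzymes that remove or add acetyl groups, 4 of 11 classical histone deacetylases were named (HDAC1, HDAC3, HDAC8 and HDAC9). So were 5 of 15 acetyltransferases (KAT5, KAT6B, KAT7, NCOA3 and TAF1). All of them were in a term with SIRT1, and all but TAF1 were in at least 1 of the broad transcription terms. Among all other named genes, 33.7% shared a term with SIRT1. EP300 and CREBBP, the broad acetyltransferases, were in no listed term. Of 16 genes that make or use NAD, 4 were named: PARP2, which shared DNA repair with SIRT1, and NADSYN1, QPRT and NMRK1, which make NAD and shared no term with it. NAD metabolic process held 6 of 11 genes, NADSYN1 and QPRT included (Benjamini p = 0.933 by the authors' deposited table), and did not name SIRT1. NAMPT, the main enzyme of NAD salvage, was in no listed term.

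Among regulators that bind or modify SIRT1, 5 of 15 were named. CCAR2 and BCL6 shared 4 terms with it, and the kinases MAPK8 and DYRK1A and the SUMO protease SENP1 shared 0. Of 28 transcription factors known as substrates, 8 were named, all beside SIRT1. Among them were HSF1 (5 shared terms), CTNNB1 (4), MYC, the estrogen receptor ESR1, the sterol sensor NR1H2 and SREBF2 (3 each) and NOTCH1 (2). All 8 were in at least 1 of the broad transcription terms, which name SIRT1, so a place beside it comes with those terms. FOXO1, FOXO3 and HIF1A, substrates often studied with SIRT1, were in no listed term. A gene outside every listed term may still have been in the MDA231 list.

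Of 14 coregulators, SUV39H1, TLE1 and CTBP1 were named, with 5, 4 and 3 shared terms. Of 16 DNA repair proteins on the lists, 4 were named, BLM and MRE11 with 5 shared terms, APEX1 with 3 and XPC with 2. In the autophagy and energy-sensing list 7 of 15 were named. TSC2 shared 3 terms with SIRT1, MTOR and ATG7 2 and TSC1 1, while BECN1, ATG5 and PRKAB1 shared 0. Of 11 clock genes, BMAL1 and CRY1 were named, with 3 shared terms each. Of 11 insulin signalling genes, GSK3B, PDPK1 and PIK3R1 shared 1 term with SIRT1, and INSR and IRS2 shared 0.

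SIRT1 was named in 0 of the 37 HCC1954 terms, which also named 0 of its 891 partners (5.31% of the background). The HCC1954 terms shared 0 of their 30 genes with all 2646 named for MDA231, so this absence is not particular to SIRT1 or its partners. The HCC1954 list held only 66 genes with a biological process, against 3626 for MDA231. The absence of SIRT1 there does not show a difference in its RNA between the lines, and no such difference was tested.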

How the data were processed

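The data are 2 tables of Gene Ontology terms from the authors, with no values per library, so depth is unknown and the planned test of IP against input was left out. STAR, HTSeq, GRCh38 and GRCm38 are named per the submitters' processing notes. Neither the enrichment tool and its test nor the choice of genes is given in the sources used. Per the file headers, each row holds counts of genes (listed, background and totals), the percent of submitted genes, an unadjusted p-value, adjusted p-values (Bonferroni, Benjamini), a false discovery rate in percent and a fold enrichment. The deposited fold is the ratio of the listed to the background share. Adjusted p here means the deposited Benjamini p-value.

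Identifiers were matched to symbols with the reference gene table and GENCODE release 29 (2643 of 2646). In 3 terms, 1 of them a SIRT1 term, the deposited count is 1 below the identifiers listed. The former was kept. Computed here were listed shares with exact intervals, partner counts, Jaccard indices and folds without SIRT1. No test was made.

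Members, process groups (11 ordered name patterns) and gene lists were chosen with earlier results of these data known. The term on NF-kappaB transcription factor activity falls in the transcription group by its wording. Named partners were the 20 genes sharing most SIRT1 terms with ties taken, up to 30, genes named only beside SIRT1 (at most 10), the leading 5 per process group and listed members. Terms without SIRT1 were named, with 1 exception not reported here, where they held at least 50% of the genes of a SIRT1 term or a sirtuin. Other genes named within a term, the other DNA terms and the NAD term, and the comparison with genes in at least 13 terms, were added after the values were seen. Counting was checked on made-up tables. Python 3.11.15, pandas 2.3.3 and SciPy 1.17.1 were used. A few genes are not reported here, and 1 of them is left out of the figures; all counts include them.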

Additional observations from a re-analysis of the deposited data

How the results depend on the processing

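No paired analysis was possible because the tables hold no value per library, and leaving out libraries could not be done for the same reason. The number of SIRT1 terms past the adjusted threshold was 3, and stayed 3 at 0.01 and with the Bonferroni p-value, while 15 had an unadjusted p under 0.05. SIRT1 was in 23 terms, 22 with at least 10 background genes and 15 with an unadjusted p under 0.05, where fewer terms are counted. Of the 30 leading partners, 29 remained by the Jaccard index of term sets, 18 over terms with an unadjusted p under 0.05, 11 with terms weighted by 1 over their size, 9 over terms with under 50 listed genes and 15 without the 3 broad transcription terms. The last was chosen after seeing the data. These rankings were stopped at 30 genes, with ties broken by fewest terms without SIRT1 and then by name. With ties at the last place taken, 22 of the 30 were among 175 genes over terms with under 50 listed genes, 27 among 102 with an unadjusted p under 0.05 and 23 among 119 without the broad transcription terms. The median fold stayed between 1.70 and 1.76. With genes named in at least 2 terms asked for, 9 of 11 list counts were unchanged, and the sirtuin and NAD lists went from 4 to 2 each.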
